A study of Mus musculus with 4 samples.

Results

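The presomitic and posterior mesoderm genes described here were Tbx6, Msgn1, Dll3, Hes7, Cdx1, Cdx2 and Nkx1-2, 7 of the 21862 protein-coding genes of the GENCODE mouse annotation. They were chosen by name, with earlier results of these data known. Their chromatin was read from ATAC-seq peaks within 1 kb and within 50 kb of their transcription start sites (TSSs). ATAC-seq uses a transposase that cuts and tags open chromatin, so that a peak marks an accessible site. The 50 kb windows held 75 of the 80380 regions obtained by merging the peaks of all libraries. The study asked how acetylation of lysine 20 of CTCF, a DNA-binding protein that organises chromatin loops, bears on mesoderm formation from mouse embryonic stem cells (ESCs).

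WT and CTCF-K20R embryoid bodies (EBs) were compared, with 2 libraries of each genotype. WT cells were of the ESC line E14Tg2A, and CTCF-K20R (K20R) cells were ESCs in which CRISPR/Cas9 had changed lysine 20 of CTCF to arginine. How many edited clones stand behind the K20R libraries is not given in the sources used here. All ESCs had grown on inactivated mouse embryo fibroblasts with LIF and the 2i inhibitors, and were then aggregated in hanging drops without LIF into EBs, which were taken on day 4. An EB holds cells of several early lineages, so fewer cells of a posterior type and less accessibility per cell cannot be told apart in these data. The 4 libraries had between 51823 and 66703 peaks, and both K20R lists were shorter than both WT lists. Their depth relative to WT replicate 1, as recovered from the peak statistics, lay between 0.976 and 1.15. The libraries were less even in fold, the ratio of summit pileup to local background. At regions with a peak in all 4 libraries, the median fold was 5.86 and 7.74 in WT, against 5.73 and 7.59 in K20R. It was thus lower in replicate 1 of both genotypes.

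In the tail end of the embryo, Wnt and FGF signals keep a pool of axial progenitors that express Cdx genes and Nkx1-2. Cells that leave this pool for the presomitic mesoderm turn on the transcription factors Tbx6 and Msgn1, and a Notch-driven clock, in which Dll3 and Hes7 act, then times the cutting of somites. Tbx6 belongs to the T-box family and Msgn1 (mesogenin 1) to the basic helix-loop-helix family, and both are known activators of presomitic genes.

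Sequences of 5 regions are shown first, because differences between genotypes at Dll3, Msgn1, Cdx2, Nkx1-2 and Tbx6 are described at these regions. Each is a window reaching 100 bp to either side of the strongest summit of its region, taken from the plus strand of mm10, with matches to the searched consensus letters in capitals.
Dll3 promoter, chr7:28302261-28302461: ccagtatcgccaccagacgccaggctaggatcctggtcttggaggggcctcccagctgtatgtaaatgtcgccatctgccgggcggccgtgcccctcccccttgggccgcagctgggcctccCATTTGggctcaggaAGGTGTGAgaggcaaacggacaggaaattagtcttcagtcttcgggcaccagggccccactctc
Msgn1 downstream region, chr12:11177496-11177696: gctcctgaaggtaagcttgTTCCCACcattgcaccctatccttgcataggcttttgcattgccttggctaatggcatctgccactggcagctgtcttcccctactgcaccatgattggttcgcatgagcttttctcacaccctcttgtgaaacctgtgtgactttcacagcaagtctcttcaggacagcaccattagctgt
Cdx2 downstream region, chr5:147277520-147277720: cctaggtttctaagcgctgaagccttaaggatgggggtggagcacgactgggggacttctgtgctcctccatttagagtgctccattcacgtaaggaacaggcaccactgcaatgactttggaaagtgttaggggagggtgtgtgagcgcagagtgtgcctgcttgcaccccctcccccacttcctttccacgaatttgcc
Nkx1-2 downstream region, chr7:132559156-132559356: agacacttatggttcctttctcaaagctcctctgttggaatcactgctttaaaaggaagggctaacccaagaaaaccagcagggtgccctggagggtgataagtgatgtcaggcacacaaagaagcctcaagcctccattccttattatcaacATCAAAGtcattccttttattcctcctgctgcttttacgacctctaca
Tbx6 downstream region, chr7:126821972-126822172: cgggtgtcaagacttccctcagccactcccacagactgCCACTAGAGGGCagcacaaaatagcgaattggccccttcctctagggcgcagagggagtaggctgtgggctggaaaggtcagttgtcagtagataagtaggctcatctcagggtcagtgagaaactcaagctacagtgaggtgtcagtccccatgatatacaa

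The Dll3 window held 2 matches, both upstream of the TSS of this minus-strand gene. CATTTG, the reverse complement of the E-box CAAATG of mesogenin and MESP factors, lay 145 bp upstream, and AGGTGTGA, the reverse complement of the T-box letters TCACACCT, lay 160 bp upstream, with 9 bp between them. On either strand, the E-box letters were found in 10.6% of all 80380 windows, the T-box letters in 1.27% and both together in 0.162%. Among the 75 windows near the members, the Dll3 promoter was the only one with both. In the Msgn1 window the letters TTCCCAC of RBPJ, the DNA-binding partner of Notch, were found, which 5.08% of all windows hold. The Nkx1-2 window held the TCF-LEF letters CTTTGAT (2.68% of windows), those of the factors at the end of Wnt signalling, and the Tbx6 window held the core of the CTCF motif (11.5%). None of the 6 motifs searched was present in the Cdx2 window, where the letters of CDX factors (TTTATGG, 1.53% of windows) were also sought. A match of letters is a description and not a binding site.

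**Figure D1:**
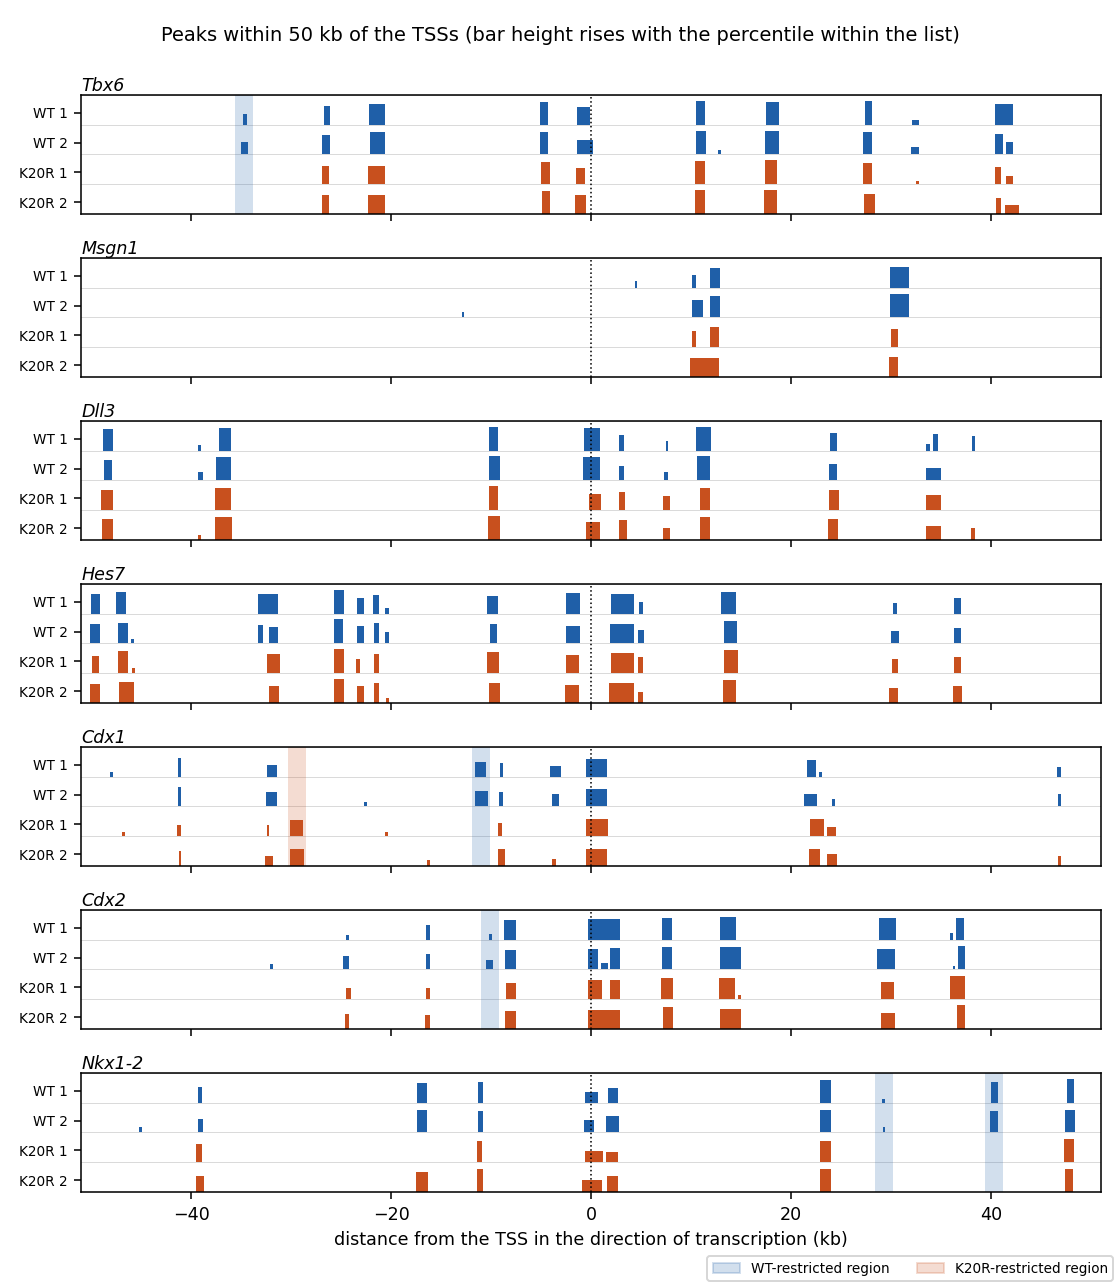
Peaks of the 4 libraries around the 7 members, by distance from the TSS in kb along the direction of transcription. Bars span each peak and their height rises with the percentile of its −log10 p within the list. Shaded bands mark the 5 WT-restricted regions and the 1 K20R-restricted region. No bar lies within 1 kb of the Msgn1 or Hes7 TSS.

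How far the members' promoters were open in each genotype was examined first. The strongest peak within 1 kb of the TSS was ranked by its −log10 p within its own list, so that percentile 100 is the strongest peak of a library. Of the 7 members, 5 had a promoter peak in all 4 lists, as did 66.3% of all protein-coding genes (14486 of 21862). Dll3, Cdx1 and Cdx2 had both K20R percentiles below both WT percentiles, Tbx6 and Nkx1-2 overlapped between genotypes, and no member lay higher in K20R. Across the 14486 genes, 32.2% lay lower and 15.7% higher in K20R, so that 3 of 5 lower is to be read against a background tilted the same way. With 2 libraries against 2, an exact two-sided permutation test cannot give a p below 0.333, and no member could pass 0.05 by it.

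Dll3 encodes a divergent Notch ligand that acts inside the cell and is needed for regular somites. Its gene lies at chr7:28293553-28302238 on the minus strand. The Dll3 promoter peak was at percentiles 87.4 and 89.9 in WT, against 56.9 and 66.5 in K20R. Both K20R values were well below both WT values, and the difference of the means was -27.0 points (exact permutation p = 0.333). Summit pileups, the number of overlapping fragments at the summit, were 95 and 150 in WT, against 52 and 89 in K20R, which did not overlap between genotypes either.

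The Dll3 peak was also shorter on its upstream side in K20R. In WT it reached 748 and 789 bp upstream of the TSS, but it reached no further than 226 and 555 bp in K20R. The downstream ends, 897 and 875 bp into the gene in WT and 967 and 920 bp in K20R, lay close together. Relative to the TSS, with upstream positions negative, peak summits were at -53 and -123 bp in WT and at -64 bp in K20R replicate 2. In K20R replicate 1 the summit was at 812 bp, inside the gene. The stretch with the T-box and E-box letters was covered by the peak of each of the 4 libraries.

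Since the K20R lists were shorter, each of the 14486 genes was also given a rank among the promoter peaks of these genes alone, by which 23% of them lay lower, 23.8% higher and 53.2% overlapped. By this rank Dll3 was at 52.2 and 57.9 in WT, against 8.61 and 13.6 in K20R. The difference of the means was -43.9 points, and 43 of the 14486 genes (0.297%, Dll3 included) fell as far. Dll3 was lower in K20R in all 13 alternative settings tried for the promoter ranks, with differences between -22.2 and -43.9 points. The other members with a promoter peak moved by between -4.56 and 5.93 points on the scale among genes.

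**Figure D2:**
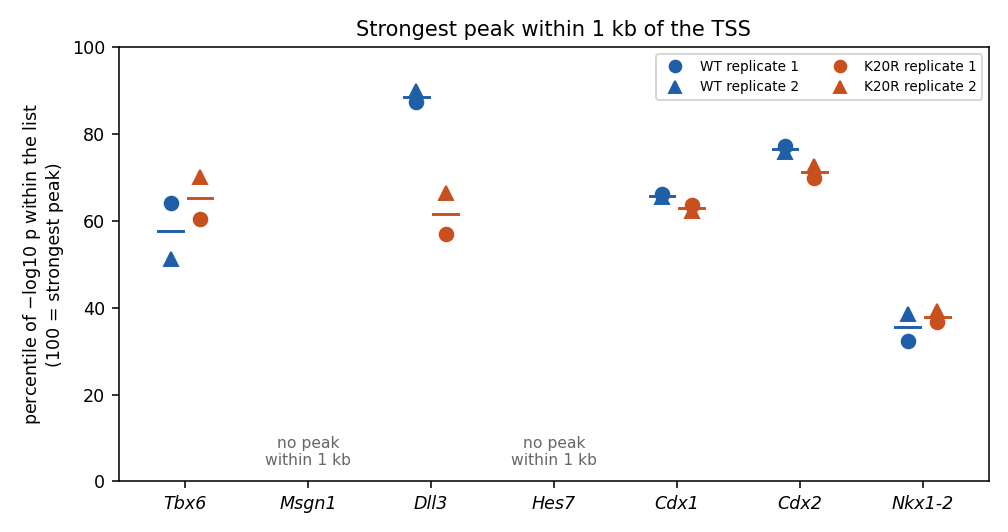
Percentile of the strongest peak within 1 kb of each member's TSS in the 4 libraries (circles, replicate 1; triangles, replicate 2; horizontal lines, means of 2 libraries). Dll3 is the member with the widest gap, with 87.4 and 89.9 in WT but 56.9 and 66.5 in K20R.

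**Figure D3:**
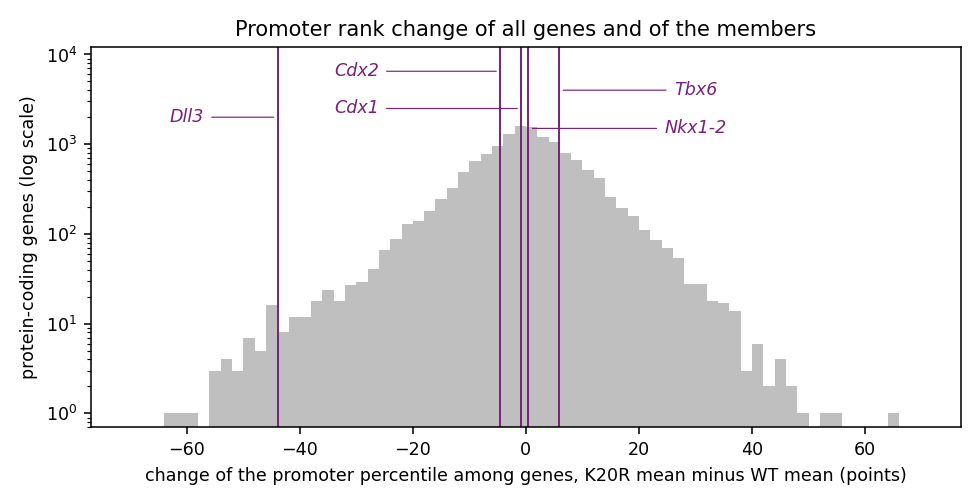
Change of the promoter percentile among the 14486 genes with a promoter peak in all lists (x axis, points, K20R mean minus WT mean; y axis, genes per bin of 2 points, log scale), with members as vertical lines. Dll3 lies at -43.9 in the left tail, and Tbx6, Cdx1, Cdx2 and Nkx1-2 lie between -4.56 and 5.93 in the centre.

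Cdx1 and Cdx2 encode caudal-type homeodomain factors of the posterior embryo. At Cdx2 (chr5:147300805-147307270, minus strand) the percentiles were 77.2 and 75.8 in WT, against 69.9 and 72.6 in K20R, a difference of -5.25 points. The Cdx2 peak had its summit 2240 and 2274 bp into the gene in WT replicate 1 and K20R replicate 2, but 18 and 167 bp from the TSS in WT replicate 2 and K20R replicate 1, so that these values do not all refer to the same site. At Cdx1 (chr18:61018862-61036199, minus strand) they were 66.2 and 65.5 in WT, against 63.6 and 62.4 in K20R, a difference of -2.89 points. At neither gene did the genotypes overlap, with an exact permutation p of 0.333 each. These small differences depended on the scale. Ranked by fold in place of −log10 p, both means lay higher in K20R, by 3.54 points for Cdx1 and 3.51 for Cdx2, and ranked among genes Cdx1 overlapped between genotypes. The peak over the Cdx1 TSS ran from about 500 bp upstream to the first intron, where its summits lay between 1032 and 1185 bp downstream in the 4 libraries.

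Tbx6, the T-box factor that directs cells to presomitic fate, lies at chr7:126781483-126785560 on the plus strand. Its peak was at 64.2 and 51.2 in WT, against 60.4 and 70.0 in K20R, and the genotypes overlapped (exact permutation p = 0.667). Its summits lay at -1281 to -1360 bp from the TSS, in an annotated exon of the neighbouring gene Ypel3. The peak covered the TSS in WT replicate 2 and ended 75 bp before it in WT replicate 1, but ended 651 and 470 bp before it in the K20R libraries.

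Nkx1-2, a homeobox gene of axial progenitors at chr7:132594878-132599637 on the minus strand, had the weakest promoter peak of the 5 members. Its percentiles overlapped, with 32.4 and 38.7 in WT, against 36.6 and 39.2 in K20R (exact permutation p = 0.667). Msgn1 (chr12:11208360-11208972, minus strand) had no peak within 1 kb in any list, and its nearest peaks were 4382 and 10082 bp away in WT and 10103 and 9904 bp away in K20R. Hes7 (chr11:69120404-69124055, plus strand), a repressor that oscillates with the segmentation clock, also had none. In all 4 libraries, however, Hes7 was flanked by a peak that ended between 1132 and 1200 bp upstream of its TSS, just outside the 1 kb limit. Numbers in the names of peaks were missing from the lists between the neighbours of the Msgn1 TSS, so a peak taken out of the lists there cannot be told from no peak. No number was missing at Hes7.

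The 75 regions within 50 kb of the members were then grouped by the libraries that had a peak. Of these, 51 had a peak in all 4 libraries (common), 5 in both WT and neither K20R library (WT-restricted), 1 in both K20R and neither WT library (K20R-restricted), and 18 in other combinations. Common regions made up 68.0%, WT-restricted regions 6.67% and K20R-restricted regions 1.33%. Of the 60130 regions within 50 kb of any protein-coding TSS, 52.8% were common, 8.76% WT-restricted, 2.97% K20R-restricted and 35.5% of other combinations. The members' windows together held 69 and 75 peaks in WT and 61 in each K20R library. Both K20R counts were below both WT counts (72.0 ± 4.24 against 61.0 ± 0, SD, n = 2, exact permutation p = 0.333), as were those of the whole lists, with 59783 and 66703 peaks in WT, against 51823 and 55832 in K20R, whereas the covered length overlapped, with 62.9 and 66.9 kb in WT, against 57.5 and 65.5 kb in K20R. Without WT replicate 1, 10 of 73 regions near the members were WT-restricted (20.7% of all regions), and without K20R replicate 2 10 of 74 were (15.9% of all). K20R-restricted regions numbered 2, 2 and 3 without WT replicate 2, K20R replicate 1 and K20R replicate 2, beside 7.47%, 7.99% and 6.86% of all regions. Hes7 and Cdx1 had the most regions (14 and 15) and Msgn1 the fewest (4).

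Nkx1-2 had 2 of the 5 WT-restricted regions. The stronger one, chr7:132558939-132559742, lay 39895 bp downstream of the Nkx1-2 TSS, in an intron of Oat and of a long transcript of Fgfr2, at percentiles 78.9 and 81.4 of the WT lists. It carried the TCF-LEF letters shown above. The other one, chr7:132570206-132570527, was among the weakest peaks of both WT lists, at percentiles 2.34 and 7.0. No peak number was missing at either place in the K20R lists. Another region near Nkx1-2, 16292 bp upstream in an intron of Lhpp, was at 72.5 and 85.0 in WT and 73.9 in K20R replicate 2. It had no peak in K20R replicate 1, but 1 peak number was missing there in that list, so a called peak may have been removed.

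Near Tbx6, the WT-restricted region chr7:126746423-126747184, in intergenic sequence 34299 bp upstream, was at percentiles 32.5 and 41.4. Here 1 peak number was missing between the neighbouring peaks of each K20R list, so that a called peak may have been removed. Near Cdx2, the region chr5:147317058-147317745 in an intron of Urad, 9788 bp upstream, was at 8.28 and 26.2 in WT, and no peak number was missing there in the K20R lists.

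The window of Cdx1 was the only one with restricted regions of both kinds, and both lay in Pdgfrb, the neighbouring gene for a growth factor receptor of mesenchymal cells. The WT-restricted one, chr18:61046553-61047853, lay in an intron 10354 bp upstream of the Cdx1 TSS, at percentiles 50.1 and 56.6. The K20R-restricted one, chr18:61064961-61066332, lay at an exon 28762 bp upstream, at 57.5 and 60.7. For the first no peak number was missing in the K20R lists, but for the second 1 was missing in each WT list. Cdx1 also had the smallest share of common regions of the 7 members, 5 of 15.

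Levels at the common regions were compared as the log2 of the summit pileup relative to the median of each library. limma, fitted over all 38527 common regions, called 4047 lower (10.5%) and 4800 higher (12.5%) in K20R at a Benjamini-Hochberg adjusted p under 0.05. Of the members' 51 common regions, 7 were lower and 8 higher, and their median difference was 0.04 against 0.08 over all common regions. By overlap of the 4 values, 12 of the 51 lay lower and 14 higher in K20R, against 23.6% and 35.6% of all common regions. An unadjusted p under 0.05 was found at 20 of the 51 and at 33.4% of all common regions. The calls needed both WT libraries and K20R replicate 2. Without WT replicate 1, WT replicate 2 or K20R replicate 2, limma called 0 regions in the genome, although 9457, 8731 and 8149 had an unadjusted p under 0.05, 16, 12 and 14 of them near the members. Without K20R replicate 1 it called 4 lower and 5 higher near the members.

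**Figure D4:**
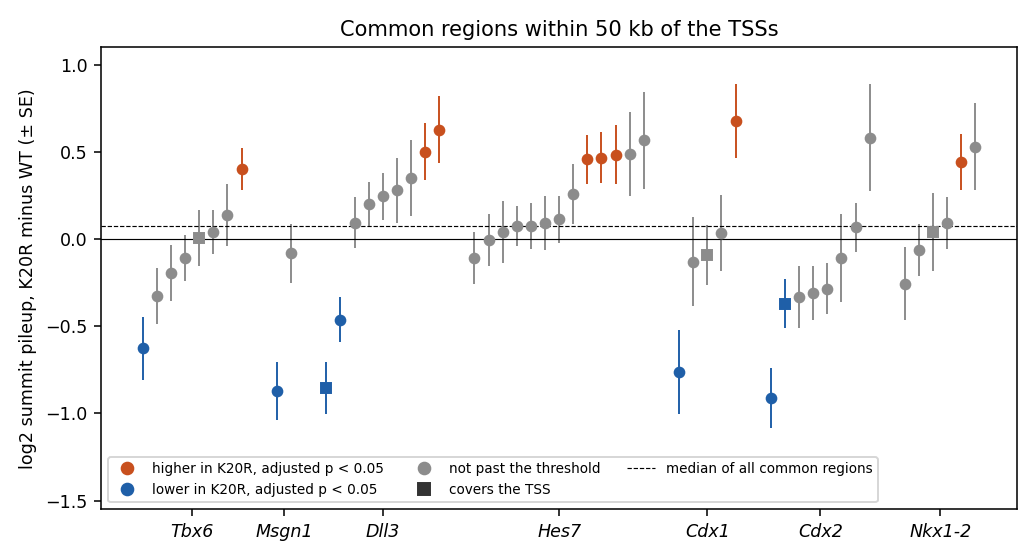
Difference of the log2 summit pileup, K20R minus WT, at the 51 common regions near the members (points or squares, with the standard error of limma), sorted within each member. The 7 blue marks are called lower, down to -0.91 near Cdx2, and the 8 orange ones higher, up to 0.68 near Cdx1. The dashed line is the median of all common regions.

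The 3 largest decreases lay near Cdx2, Msgn1 and Dll3. In the region over the Dll3 TSS, already described by its rank, log2 levels were 1.32 and 1.42 in WT, against 0.42 and 0.62 in K20R. For K20R replicate 1 the summit was the one at 812 bp, inside the gene. The difference was -0.86 ± 0.15 (SE, limma adjusted p = 2.0e-06). When single libraries were left out it stayed between -0.72 and -0.98, with a limma adjusted p between 0.00105 and 0.131. Of all common regions, 5.65% fell as far.

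Other regions around Dll3 moved in both directions. A region in a Dll3 intron, 2741 bp downstream of the TSS, had levels of 0.48 and 0.30 in WT, against 0.74 and 1.05 in K20R, and rose by 0.50 ± 0.16 (limma adjusted p = 0.015). Without K20R replicate 2 that rise was 0.32. The promoter of Eid2b rose by 0.63 ± 0.19 (limma adjusted p = 0.0094), or by 0.41 without WT replicate 2, and that of Selenov, which lies 10479 bp downstream of the Dll3 TSS, fell by 0.46 ± 0.13 (limma adjusted p = 0.0038). Of the 9 common regions near Dll3, 2 were called lower and 2 higher. A region at a Dll3 exon, 7220 bp downstream, was at percentiles 28.6 and 21.9 in WT, against 46.9 and 40.8 in K20R, and was not called (limma adjusted p = 0.3). Common regions within 1 Mb of the Dll3 TSS but outside the 50 kb window had a median difference of 0.13.

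The lowered region near Msgn1, chr12:11177142-11179228, lay in intergenic sequence 29744 bp downstream of its TSS. Its log2 levels were 0.75 and 1.27 in WT, against 0.07 and 0.21 in K20R, a difference of -0.87 ± 0.17 (SE, limma adjusted p = 1.6e-05). Both K20R values were below both WT values. The peaks there were also narrower in K20R, with 749 and 969 bp, than in WT, with 1857 and 1894 bp. They began at positions 11178267 and 11178260 in K20R, against 11177179 and 11177142 in WT, so that no K20R peak covered the window printed above with the RBPJ letters, and the levels compared are those of summits at different places in the region. The single other common region near Msgn1, 9904 bp downstream, was at percentiles between 71.1 and 80.9, and the genotypes overlapped there. Without WT replicate 1 the difference was -1.15 and without WT replicate 2 it was -0.62, with an adjusted p of 0.104 and 0.16 by limma; over all settings this p ranged from 1.8e-06 to 0.178.

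At Cdx2, 2 regions were called lower and none higher. The region chr5:147276759-147278652, in intergenic sequence 28618 bp downstream of the TSS towards Pdx1, had levels of 0.90 and 0.76 in WT, against 0.00 and -0.16 in K20R, a difference of -0.91 ± 0.17 (SE, limma adjusted p = 1.4e-05). Its percentiles were 82.1 and 78.8 in WT, against 62.5 and 56.4 in K20R, with no overlap. The other called region spans the Cdx2 TSS and first intron, but its levels were those of summits inside the gene. In WT replicate 2 and K20R replicate 1 the fitted peak, with pileups of 160 and 77, did not reach the TSS. Their separate peaks over the TSS, with pileups of 128 and 72, were not fitted. The region over the Cdx2 TSS and first intron fell by 0.37 ± 0.14 (limma adjusted p = 0.042), and its adjusted p by limma ranged from 0.0184 to 0.308 over the alternatives.

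None of the other regions around Cdx2 passed the test. Of its 8 common regions, 5 had both K20R levels below both WT levels and 0 had them above (23.6% and 35.6% of all common regions), and by percentile within the list 6 were lower and 0 higher. By percentile, 34.8% of all common regions were lower and 18.6% higher. The strongest not called outside the promoters of other genes were intergenic sites 12836 and 7019 bp downstream of the TSS, with differences of -0.31 ± 0.16 (limma adjusted p = 0.15) and -0.29 ± 0.15 (limma adjusted p = 0.16). The promoter of Pdx1, a homeobox gene of the pancreas, had levels between 1.02 and 1.46 that overlapped between genotypes.

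At Hes7, 3 common regions were called higher, none lower, and no region was restricted. The region 9144 bp upstream of its TSS, chr11:69109982-69111260, had levels of 0.24 and 0.26 in WT, against 0.88 and 0.58 in K20R, and rose by 0.48 ± 0.17 (SE, limma adjusted p = 0.026). The others were an intergenic region 45651 bp upstream, which rose by 0.46 ± 0.14 (limma adjusted p = 0.011), and an exon of Aloxe3, which rose by 0.47 ± 0.15 (limma adjusted p = 0.011). By overlap of levels, 5 of the 13 common regions lay higher and 0 lower, against 35.6% and 23.6% of all common regions. The peak just outside the Hes7 promoter limit was at percentiles 77.4 and 62.6 in WT, against 67.3 and 65.8 in K20R, and its difference of -0.11 ± 0.15 (limma adjusted p = 0.66) did not pass the test. An intergenic region 31136 bp upstream was at percentiles between 62.6 and 73.8 and overlapped, but these values do not all refer to the same site. In WT replicate 2 the ranked peak ended at position 69087564, and a separate peak from 69088221 was at 58.4. The WT replicate 1 peak ran from 69087134 to 69089048. The K20R peaks began only at 69088027 and 69088209, so neither covered the strongest summit of the region, at 69087275.

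Near Tbx6, the region with the CTCF letters, chr7:126821847-126824311 in an intron of Fam57b, had levels of 0.63 and 0.48 in WT, against 0.07 and -0.21 in K20R. It fell by 0.63 ± 0.18 (SE, limma adjusted p = 0.0057). A promoter of Aldoa, a glycolytic enzyme gene 17262 bp downstream of the Tbx6 TSS, rose by 0.40 ± 0.12 (limma adjusted p = 0.0094). The merged region that reaches the Tbx6 TSS differed by 0.01 ± 0.16 (limma adjusted p = 0.98). Its summits lay at -1281 to -1360 bp from the TSS, and both K20R peaks and that of WT replicate 1 ended before the TSS. No level at the Tbx6 TSS itself was therefore compared. In the window, 2 of the 8 common regions were called. An intergenic region 26119 bp upstream was at percentiles between 65.4 and 73.5 and was not called.

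Near Cdx1 and Nkx1-2, the called regions belonged to neighbouring genes. The promoter of Slc6a7 rose by 0.68 ± 0.21 (SE, limma adjusted p = 0.012) and an intronic region of Pdgfrb, 40975 bp upstream of the Cdx1 TSS, fell by 0.76 ± 0.24 (limma adjusted p = 0.012). Without WT replicate 2 the rise at Slc6a7 was 0.32. The promoter of Lhpp, 10816 bp upstream of the Nkx1-2 TSS, rose by 0.44 ± 0.16 (limma adjusted p = 0.035), with levels of 0.45 and 0.55 in WT, against 0.67 and 1.22 in K20R. It rested on K20R replicate 2, without which it was 0.14, and was 0.75 without K20R replicate 1. In the regions over the TSSs of Cdx1 and Nkx1-2 the differences of -0.09 ± 0.17 and 0.04 ± 0.22 did not pass the test (limma adjusted p = 0.76 and 0.92). Outside the TSSs of members and the promoters of other genes, the strongest regions not called were an Fgfr2 intron 47330 bp downstream of the Nkx1-2 TSS, at percentiles between 88.6 and 90.9, a site 38759 bp upstream of it at 53.9 and 46.7 in WT, against 66.2 and 56.7 in K20R (limma adjusted p = 0.12), and a Pdgfrb intron 31365 bp upstream of the Cdx1 TSS at 37.5 and 50.9 in WT, against 34.0 and 31.2 in K20R (limma adjusted p = 0.77).

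A wider list of 28 genes of the same tissues was placed beside the members. They were chosen for their known roles, but with earlier results of these data known. Of these, 26 had a promoter peak in all 4 lists, and Meox1 and Cdx4 had none. By percentile within the list, 9 of the 26 were lower, 3 higher and 14 overlapping, and ranked among genes 8 were lower and 5 higher. The first shares are near the background of 32.2% and 15.7%, and the list as a whole did not stand apart by them. The counts among genes are to be read against 23% lower and 23.8% higher over all genes ranked. The median change among genes was -0.60 points, against 0.07 over all genes.

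The genes of the list with the largest decreases among genes were Mesp2, T, Lfng and Evx1. Mesp2, a basic helix-loop-helix factor of the forming somite, was at 90.0 and 93.1 in WT, against 67.5 and 74.7 in K20R, a change of -44.1 points among genes. T (Brachyury), the T-box factor of the primitive streak, changed by -24.1 points, Lfng, which modifies Notch receptors, by -14.7, and the homeobox gene Evx1 by -14.0. The targets of Wnt signalling Axin2 and Sp5 each changed by -9.94 points, and Fgf8, Wnt5b and Fgf4 were also lower within the lists. Higher were Nrarp, a feedback inhibitor of Notch, with 83.7 and 84.6 in WT, against 88.4 and 85.0 in K20R, the ligand gene Wnt3a and the progenitor factor Sox2. The Notch ligand gene Dll1, the presomitic relative of Dll3, overlapped between genotypes, with 75.9 and 74.0 in WT, against 68.8 and 75.3 in K20R.

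Markers of other cells the EBs could hold were counted in the same way. Of 8 fibroblast genes, which the feeder cells would express, 5 had a promoter peak in all lists and Col3a1, Postn and Fap had none in any. The median percentile of those 5 was 78.5 and 81.9 in WT, against 77.4 and 82.3 in K20R, and 2 were lower and 0 higher in K20R. Of 8 pluripotency genes 7 had such a peak (2 lower, 3 higher), of 8 neuroectoderm genes 8 (3 lower, 0 higher) and of 8 endoderm genes 3 (2 lower, 1 higher), all to be read against the background of 32.2% lower and 15.7% higher. Of the other endoderm genes, Hnf4a had a promoter peak in both WT lists, at percentiles 30.6 and 32.8, but in neither K20R list. Cer1, Afp, Ttr and Apoa1 had none in any list. Among all 21862 protein-coding genes, 872 had a promoter peak in some lists only. Several of the marker genes moved far on the scale among genes. The endoderm factor gene Foxa2 changed by -49.9 points. Its percentiles within the peak lists were 96.7 and 97.1 in WT, against 81.1 and 78.9 in K20R. Neurog1 of the neuroectoderm genes changed by -34.4 and Thy1 of the fibroblast genes by -25.1. Among the pluripotency genes, Tdgf1, Nanog and Klf4 changed by -21.7, -9.31 and -2.98. The others with a peak, Pou5f1, Zfp42, Tfcp2l1 and Esrrb, changed by 23.5, 26.1, 12.4 and 2.75. Median changes were 2.75 points for pluripotency, -3.61 for neuroectoderm, -2.75 for endoderm and -0.66 for fibroblast genes. The part of a change in cell makeup in the differences at Dll3, Msgn1 and Cdx2 was not tested.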

How the data were processed

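ATAC-seq of day 4 EBs was analysed from 4 deposited peak lists, 2 WT and 2 K20R, grouped by their labels. The study describes its 2 libraries per genotype as biological replicates. According to its methods and processing notes, the authors trimmed reads with Trim Galore, aligned them to mm10 with Bowtie2, removed reads of low mapping quality, duplicates and blacklisted regions, and called peaks with MACS2. The authors deposited for each peak a score, a fold (ratio of summit pileup to local background), a −log10 p and a −log10 q. The deposited score was not used. Read totals were not used here. Peak names are numbered with gaps, and the lists hold between 50.5% and 60.8% of their numbers, so an unlisted peak may have been called and removed by a rule not given in the sources used here.

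Members and gene lists were chosen with earlier results of these data known. The genes named are the 7 members, with each restricted or called region in their windows and up to 2 of the strongest others outside the promoters of other genes. TSSs were those of GENCODE vM21 basic protein-coding transcripts. Peaks sharing at least 1 bp were merged into regions, which were annotated by the strongest summit. Percentiles rank −log10 p within a list. Summit pileup and background were recovered from the deposited fold and −log10 p, and gave whole pileups (within 0.02) for 100% of peaks. limma (version 3.58.1 in R 4.3.3, trend on) compared centred log2 pileups of common regions, with Benjamini-Hochberg adjustment, and was tested on simulated data. Other comparisons used exact two-sided permutation tests. Because peaks are listed only above a p threshold, weak sites have no value. Sequences are from the reference genome of the same build. Motifs were searched on both strands within 100 bp of the summit, and coordinates count from 1.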

Additional observations from a re-analysis of the deposited data

How the results depend on the processing

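The decrease of Dll3 held its direction in every alternative tried, while counts of members and regions depended on the setting. The number of members with lower promoter ranks was 3 of 5, beside 32.2% of all genes ranked. It was 1 by fold (24.7% of genes) or when all lists were cut to an equal number of their strongest peaks (18.6%). It was also 1 with the summit itself within 1000 bp of a TSS (31.8%). This setting was added after the data were seen and kept 2 members. The number with higher ranks (0, beside 15.7% of genes) was 2 by fold (14.2%) and with equal numbers of peaks (29.6%). It was 1 when ranked among genes (23.8%). Leaving out single libraries gave 3 lower in each case, beside 42.3% to 50.1% of genes. It gave 0 to 2 higher, beside 25% to 31% of genes. Cdx1 and Cdx2 turned to 3.54 and 3.51 points higher by fold, and Cdx1 to 3.20 with equal numbers of peaks. The cause was not tested. Of the 75 regions, 5 were WT-restricted and 1 K20R-restricted, beside 10.4% and 3.1% of all regions. When −log10 q had to reach 5, these were 2 and 2 of 62, beside 9.32% and 3.08%. With equal numbers of peaks they were 3 and 2 of 66, beside 8.04% and 6.29%. Within 10 kb they were 1 and 0 of 21, and within 100 kb 10 and 1 of 126, each beside 10.4% and 3.1%. Without single libraries WT-restricted regions ranged from 6 to 10, beside 12.6% to 20.7% of all regions. K20R-restricted regions then ranged from 1 to 3, beside 4.45% to 7.99%.

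Of limma's calls, those near the members that were higher (8) became 5 by quantile normalization, under which the region 9144 bp upstream of Hes7 and the promoters of Slc6a7 and Lhpp were not called (limma adjusted p = 0.057, 0.052 and 0.0965) and 4129 of all regions were lower and 3748 higher. Setting missing peaks to the background level tests more regions, near the members all 75 in place of 51. By this fit 8363 of all regions were lower, 12 of them near the members, and 5260 higher, 9 of them near the members. Some of these calls rest on filled values. Examples are the stronger WT-restricted region near Nkx1-2 at -4.40 and the K20R-restricted region near Cdx1 at 3.87. Without single libraries, all calls ranged from 0 to 4169 lower and from 0 to 3622 higher, and those near the members from 0 to 4 and from 0 to 5. Where 1 library of a genotype was left, it was assumed to vary like the others. Deviations of WT replicate 1 and K20R replicate 1 correlated at 0.098 over 38527 regions. With only 2 pairs, the numbers were not taken to pair the samples. The median fold at common regions, however, was 5.86 (WT) and 5.73 (K20R) in replicate 1, against 7.74 and 7.59 in replicate 2. Whether libraries of the same number were handled together is not given in the sources used here. With the replicate block, limma called 4394 regions lower and 5495 higher, 7 and 8 near the members. Within both numbers, 1 member (Nkx1-2) had a higher promoter rank, beside 21.7% of genes, and 3 a lower one, beside 41.3%.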
